A study of Mus musculus with 4 samples.

Results

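C1q macrophages of mouse draining lymph nodes were taken as the cells with at least 3 UMIs of C1qa, C1qb and C1qc together, no UMI of Cd3d, Cd3e or Cd3g and at most 1 UMI of Cd79a. A UMI (unique molecular identifier) marks 1 captured mRNA molecule, so that copies made by PCR are counted once. The rule was applied to cells with 200 to 5000 genes, at most 20000 UMIs and under 10% mitochondrial UMIs, and 219 of 32725 such cells met it. The libraries came from wild-type C57BL/6 mice, 2 from untreated animals (Control) and 2 from animals given 100 µg of extracellular vesicles of induced pluripotent stem cells under the skin (EV). The labels call the controls untreated and give 24 h of treatment, whereas the design text of the series gives 5 days and the methods of the study give PBS for the controls, and this difference could not be settled from the counts. All nodes were broken up mechanically and passed through a strainer, without a digestion named in the labels, and no age or number of animals per library was given. The question was which macrophages these cells are, by their sinus and medullary markers, and what differed in them between EV and Control.

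C1q is the recognition molecule of the classical complement pathway, built from chains A, B and C, which are encoded by C1qa, C1qb and C1qc. It binds antibody complexes and dying cells, and most of it is made by tissue-resident macrophages rather than by lymphocytes. Lymph nodes hold several macrophage populations. Subcapsular and medullary sinus macrophages line the lymph channels, carry CD169 (Siglec1) and take up particles from the lymph, medullary macrophages also carry receptors such as MARCO and SIGN-R1 (Cd209b), and tingible body macrophages clear dying B cells in follicles. These cells cling to the tissue and are easily torn or lost when a node is made into a suspension.

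The 3 C1q genes lie side by side on the minus strand of chromosome 4 of mm10 (GRCm38), in the order C1qb (chr4:136880129-136886187), C1qc (chr4:136889804-136893065) and C1qa (chr4:136895917-136898803), within 18675 bases. Sequence before the RefSeq start sites (GRCm38.p6) is shown for C1qb and C1qc, and for Cd5l, a scavenger gene with no UMI in Control members. The promoter set used here held no C1qa sequence. Capitals mark the core GAGGAA, which PU.1 and other ETS factors can bind, and the MAF core TGCTGA, on either strand (TTCCTC and TCAGCA). PU.1 (Spi1) and MAF are macrophage regulators. The C1qb window is chr4:136886201-136886450 on the minus strand, the C1qc stretch chr4:136893066-136893164 on the minus strand, and the Cd5l window chr3:87357631-87357880 on the plus strand.
C1qb: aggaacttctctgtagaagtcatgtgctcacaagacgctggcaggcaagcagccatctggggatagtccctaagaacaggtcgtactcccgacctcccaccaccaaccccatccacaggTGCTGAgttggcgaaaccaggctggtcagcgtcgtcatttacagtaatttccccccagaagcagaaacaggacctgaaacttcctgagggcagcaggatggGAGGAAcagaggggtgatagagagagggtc
C1qc: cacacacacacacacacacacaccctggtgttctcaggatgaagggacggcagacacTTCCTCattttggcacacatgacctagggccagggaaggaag
Cd5l: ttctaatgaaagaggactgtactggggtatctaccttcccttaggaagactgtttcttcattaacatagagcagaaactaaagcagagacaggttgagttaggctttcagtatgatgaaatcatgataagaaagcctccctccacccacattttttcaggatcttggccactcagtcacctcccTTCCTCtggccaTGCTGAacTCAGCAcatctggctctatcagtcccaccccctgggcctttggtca
In C1qb, GAGGAA lay at bases -30 to -25 and TGCTGA at -131 to -126, counted from the start site. The C1qc stretch stops at the annotated end of the gene given above, which reaches past the RefSeq start, and held TTCCTC at -193 to -188 from the RefSeq start. In the Cd5l window, TTCCTC at -66 to -61 was followed by TGCTGA at -54 to -49 and TCAGCA at -46 to -41. Of 32851 windows of 250 bases before mouse start sites, 23.3% held the first core and 16.1% the second on either strand, so that a match is common and is given as a description. Neither binding nor use of these letters was measured.

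The members were shallow cells. Their median depth was 1019 and 973 UMIs in Control libraries 1 and 2 and 1125 and 1036.5 UMIs in EV libraries 1 and 2, against 5510.5, 6585.5, 6669 and 6642 UMIs in the other cells of the same libraries. That is between 0.148 and 0.185 of the depth of the other cells. The median number of genes was 583, 492, 594 and 569, against 2087 to 2401 in the other cells. Mitochondrial UMIs were not raised, with medians of 1.94% to 2.82% in members and 2.94% to 3.59% in the other cells. In all, the members held 48074 and 131277 UMIs in the Control and 129160 and 101688 UMIs in the EV libraries, and no cell barcode was shared between members of different libraries.

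The members were chosen by their C1q UMIs, so these values are a description. A member held a median of 9, 7, 7 and 8 C1q UMIs in Control 1, Control 2, EV 1 and EV 2, and at most 35, 54, 160 and 60. C1q made up 8695, 5294, 7053 and 4848 CPM, a gene's UMIs scaled to the same total in each sum, in the members. In B cells, with 2 or more Cd79a UMIs and no Cd3 UMI, it made up 2.12, 5.06, 5.36 and 5.95 CPM. The members held 70.4%, 67.4%, 74.7% and 58.3% of all C1q UMIs of their libraries. At the edge of the rule, 3, 16, 9 and 6 members had exactly 3 C1q UMIs, and 5, 15, 16 and 10 cells lay just outside with 2. Another 10, 22, 23 and 12 cells had 1. Cells with 3 or more C1q UMIs that were left out for a Cd3 UMI numbered 11, 18, 5 and 15, those left out for Cd79a 3, 7, 14 and 12, and together they had median depths of 6854 to 8323 UMIs, near those of lymphocytes. The plot of C1q UMIs against depth shows these edges.

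**Figure D1:**
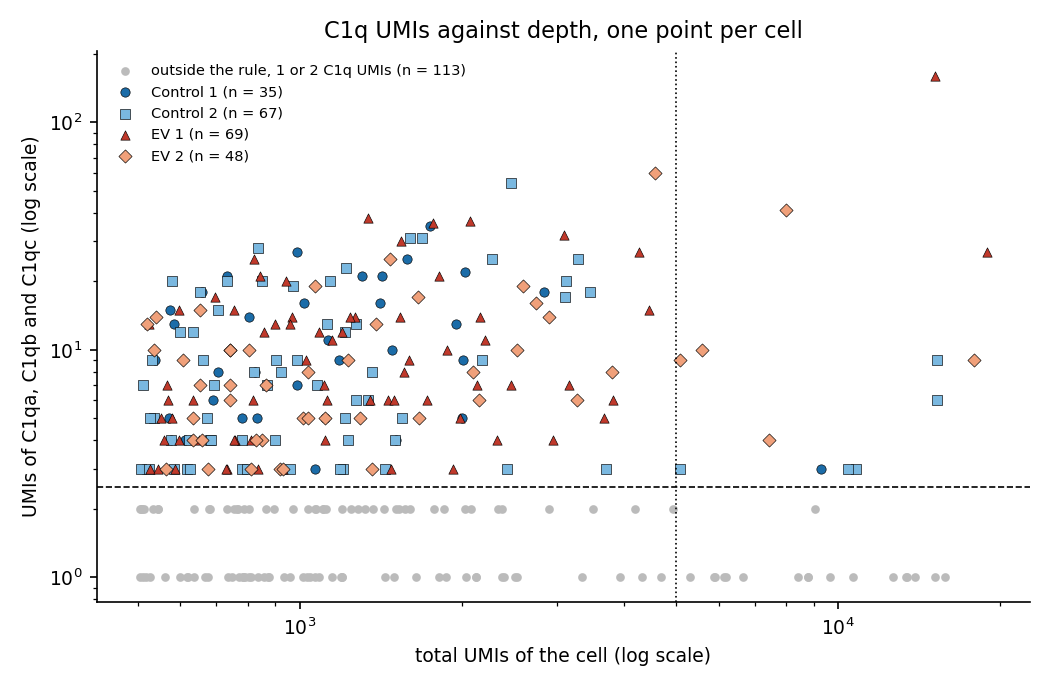
UMIs of C1qa, C1qb and C1qc together (y, log scale) against total UMIs (x, log scale), 1 point per cell, for the 219 members by library and, in grey, the 113 cells that meet the other criteria with 1 or 2 C1q UMIs. The dashed line is the limit of 3 C1q UMIs and the dotted line 5000 UMIs, and 13 members lie to the right of the dotted line.

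Most members carried sinus and medullary markers, but CD169 was rare among them. A Siglec1 (CD169, chr2:131069220-131086765) UMI was found in 2.86%, 5.97%, 4.35% and 2.08% of the members of Control 1, Control 2, EV 1 and EV 2, which is 9 of 219 cells, against 0% to 0.0867% of B cells. Cd163, the haemoglobin scavenger receptor (chr6:124304656-124330527), was found in 1 member of Control 2 and 1 of EV 1, and in none of the 35 members of Control 1 or the 48 of EV 2, which allows shares of cells with a UMI of up to 8.57% and 6.25% and sets no limit on cells that express the gene. With each cell thinned at random to 500 UMIs, 1 Siglec1 cell and no Cd163 cell remained. Thinning can only remove such cells, so it does not tell low depth from low expression. Without thinning, Siglec1 was seen in 1.41% of members under 800 UMIs, 2.5% from 800 to under 1500 UMIs and 8.82% with more.

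Marco, Ccl8 and Lyz1 were found in larger shares. Marco (chr1:120474538-120505024), a scavenger receptor for bacteria and particles, had a UMI in 34.3% (95% Clopper-Pearson interval 19.1 to 52.2), 22.4% (13.1 to 34.2), 36.2% (25 to 48.7) and 35.4% (22.2 to 50.5) of members, against 0.141% to 0.498% of B cells. Each EV library had a larger share than either Control library, within overlapping intervals (exact permutation test, two-sided, p = 0.33, the smallest p that 2 against 2 allow). These intervals cover counting error only. Ccl8 (chr11:82115185-82116799), a monocyte-attracting chemokine, had a UMI in 57.1%, 53.7%, 56.5% and 58.3% of members, against 0.211% to 0.953% of B cells. Its 4 shares lay closer together than those of Marco, and the groups overlapped.

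The lysozyme genes Lyz1 (chr10:117287797-117292868) and Lyz2 (chr10:117277331-117282321) are neighbours, and Lyz2 is the common macrophage lysozyme. Lyz2 was found in 97.1%, 95.5%, 95.7% and 97.9% of members (211 of 219), against 1.76% to 3.94% of B cells, and Lyz1 in 20%, 8.96%, 17.4% and 10.4% (30 of 219), against 0.0703% to 0.339% of B cells. The longest transcripts of the pair share 437 of their windows of 30 bases, which is 35.4% of those of Lyz1, so the split of reads between them is uncertain. The share with Lyz1 moved with depth, from 1.41% of the 71 members under 800 UMIs through 13.8% of 80 from 800 to under 1500 UMIs to 26.5% of 68 with more. The shares with Marco were 26.8%, 32.5% and 35.3% in the same classes, and those with Ccl8 57.7%, 57.5% and 52.9%. Of the 5 markers Siglec1, Cd163, Marco, Ccl8 and Lyz1, 73 members had none, 75 had 1, 56 had 2, 14 had 3 and 1 had 4.

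Other receptors of resident macrophages were also found. Timd4, which binds phosphatidylserine on dying cells, was seen in 45.7%, 41.8%, 49.3% and 47.9% of members, and Cd209b (SIGN-R1), which binds microbial sugars, in 40%, 32.8%, 42.0% and 33.3%. Vcam1, an adhesion molecule, was seen in 28.6% and 26.9% of Control and in 53.6% and 35.4% of EV members, without overlap, while its share also rose with depth from 23.9% to 54.4% over the 3 classes. The haem-responsive transcription factor Spic had a UMI in 14.3%, 16.4%, 40.6% and 29.2% of members. The share with Spic likewise rose with depth, from 9.86% to 41.2% over the 3 classes. Adgre1 (F4/80) was seen in 17.1%, 2.99%, 14.5% and 8.33% of members, against 1.52% to 2.20% of B cells. Lyve1 was seen in 1 member, and Clec4f, a Kupffer cell lectin, in none. The macrophage genes Lyz2, Timd4, Cd209b and Marco, which the rule did not use, were thus found in these cells. The sinus markers CD169 and CD163 were seen in few of them.

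**Figure D2:**
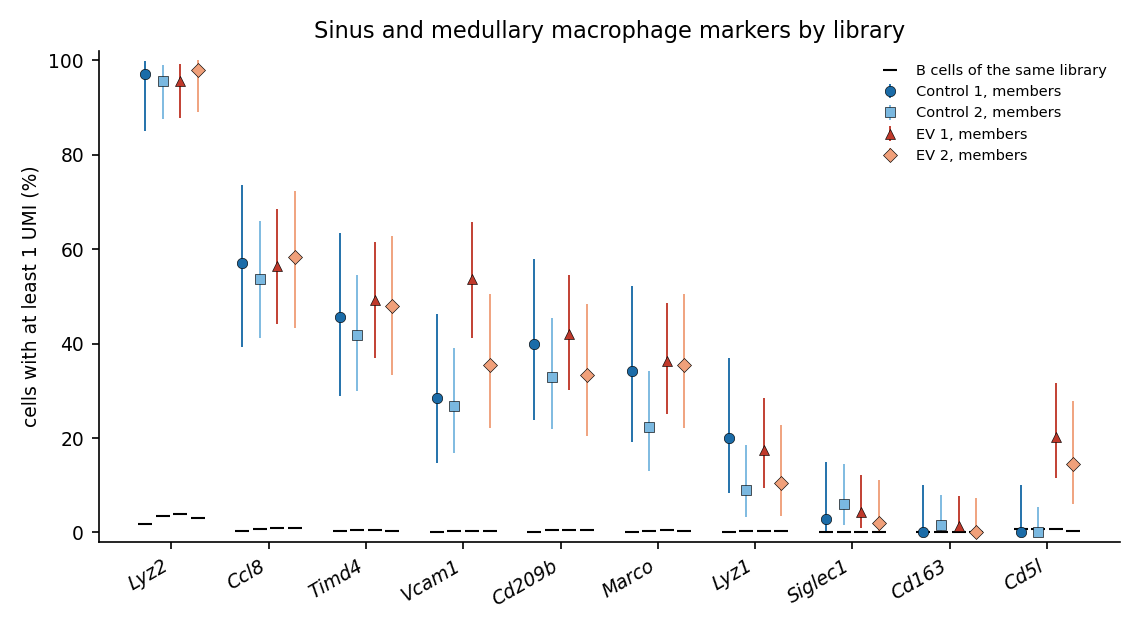
Percent of members with at least 1 UMI of each marker (y) by gene and library (x), with 95% Clopper-Pearson intervals as bars and the share of B cells of the same library as black dashes. Lyz2 is above 95% in every library, Siglec1 and Cd163 are under 6%, and Cd5l is at 0 in both Control libraries.

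Members with and without a Marco UMI differed in the shares with a UMI of some other genes. After thinning to 500 UMIs, 47 members had a Marco UMI and 172 had none. Ccl8 was seen in 80.9% of the former and 36.6% of the latter, Timd4 in 68.1% and 19.2%, and Hmox1, which encodes haem oxygenase 1, in 40.4% and 15.7%. Spic was seen in 34.0% and 9.30%, and Cd5l in 25.5% (12 cells) and 0.581% (1 cell). Cd68 (23.4% and 22.1%) and Vcam1 (21.3% and 18.6%) had similar shares on both sides. Csf1r, the receptor for macrophage colony-stimulating factor, was less frequent beside Marco, in 6.38% (3 cells) and 14% (24 cells). Mrc1 was seen in 6.38% (3 cells) and 4.07%, and Adgre1 in 4.26% (2 cells) and 3.49%. Without thinning, where depth differs between cells, Csf1r was seen in 26.1% of the 69 members with Marco and 26% of the 150 without, Mrc1 in 17.4% and 6%, and Adgre1 in 14.5% and 8%. These shares pool the cells of 4 libraries and are a description, with no test. Before thinning, Marco was seen in 12, 15, 25 and 17 members of Control 1, Control 2, EV 1 and EV 2, and Cd5l in 0, 0, 14 and 7. Differences between libraries thus enter the pooled shares. Without thinning, 19 of the 21 members with a Cd5l UMI also had one of Marco, and 20 had one of Ccl8.

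**Figure D3:**
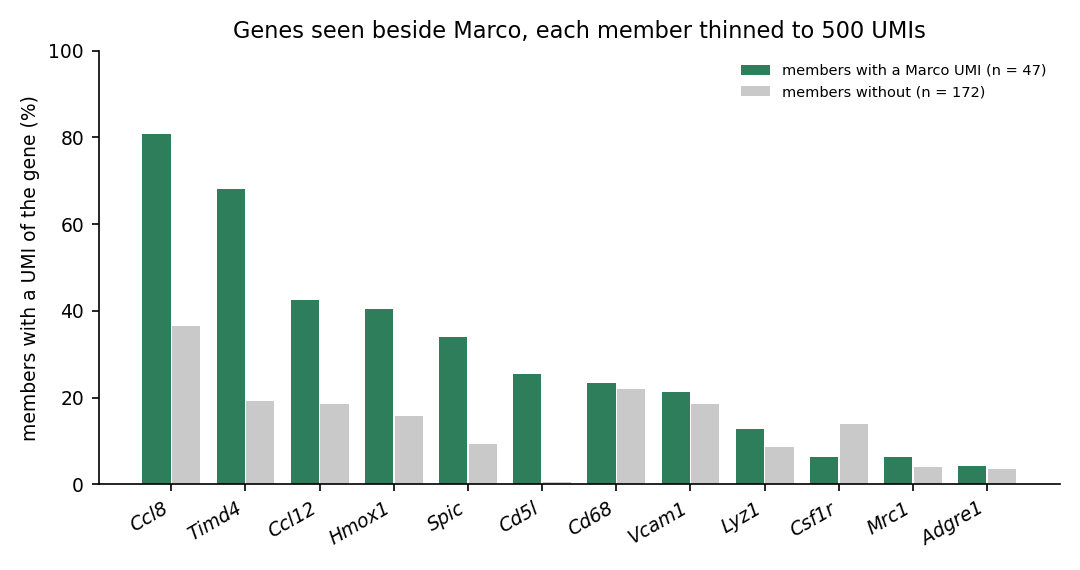
Percent of members with a UMI of each gene (y) among the 47 members with a Marco UMI (green) and the 172 without (grey), each cell thinned to 500 UMIs and the 4 libraries pooled. Ccl8, Timd4, Hmox1, Spic and Cd5l are more frequent beside Marco, Cd68 and Vcam1 are about level, and Csf1r is less frequent beside Marco, with 3 cells there.

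In sums over the members of each library, 559 genes had a UMI in at least 25% of the members, of which 253 stood at least 2-fold and 68 at least 10-fold above all other cells (means of 4 libraries, 5 CPM added to both). After C1qa (352-fold), C1qb (337-fold) and C1qc (278-fold), which the rule used, the highest folds were those of Ccl8 (246-fold), Lyz2 (164-fold), Cd209b (150-fold), Apoe (146-fold), Pla2g2d (123-fold), Aif1 and Ccl12 (111-fold each), Timd4 (110-fold) and Marco (100.2-fold). Apoe carries lipids, Pla2g2d is a secreted phospholipase of lymphoid tissue, and Ccl12 is a chemokine beside Ccl8 on chromosome 11. Cxcl9, Cd63, Hebp1, Fabp5, Hmox1, Vcam1, Igf1, Nr1h3, Clec4n, Prxl2b, Lgals3 and Cfb were also among the 25 leading genes, at 96.5-fold to 52.2-fold. None of the 25 is a lymphocyte gene.

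Gene groups differed in how many of their genes stood above the other cells. Few MHC class II (2 of 11), MHC class I (2 of 12) and chaperone genes (5 of 20) stood more than 2-fold above them. Of 13 mitochondrially encoded genes, 0 did. Of 32 lysosomal and cathepsin genes, 28 stood more than 2-fold above other cells, among them Psap (mean 2309 CPM, 18.3-fold), which encodes the precursor of the saposins, and Ctsb (1804 CPM, 35.2-fold), a cathepsin. All 14 general macrophage genes did so, and 20 of the 23 sinus and medullary genes. These 20 include Cd163 (2.03-fold) and Stab1 (2.13-fold), which had a UMI in 2 and 3 members. Of the 559 genes with a UMI in at least 25% of members, 253 stood at least 2-fold above the other cells. The lists have no such limit on detection, so their counts are not on the same basis as this one. The ferritin chains Fth1 (mean 14128 CPM, 11.3-fold) and Ftl1 (11588 CPM, 18.7-fold) had a UMI in every member. Of 17 complement genes outside C1q, 15 had a UMI and 9 stood more than 2-fold above the other cells. Among these were Cfp (397 CPM, 38.6-fold), which encodes properdin, C3 (373 CPM, 52.1-fold) and Cfb (357 CPM, 52.2-fold), while Cd55 stood at 0.19-fold. The signalling chain of Fc receptors, Fcer1g, stood at 1608 CPM (39.5-fold). Of the MHC class II genes, Cd74 at 5528 CPM (1.13-fold) and H2-Aa at 2779 CPM (1.82-fold) were near the level of the other cells, which include B cells, and the 11 genes of the list ranged from 0.13-fold (H2-Ob) to 7.83-fold (Ifi30). Of the 30 inflammatory and anti-inflammatory mediators, 20 had a UMI. Lgals3, which encodes galectin 3, stood at 1243 CPM, and Il18, a cytokine of the interleukin 1 family, at 499.8 CPM (47.9-fold) with a UMI in 46.6% of members, while Il10, Nos2, Tnf and Il6 had no UMI in any member.

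Malat1, a nuclear RNA that most cells hold in abundance, was missing from most members, an observation made after its values were seen. It had a UMI in 20%, 23.9%, 26.1% and 33.3% of the members of Control 1, Control 2, EV 1 and EV 2. Thinned to 500 UMIs, 14.3%, 16.4%, 18.8% and 18.8% of members held one, against 99.7%, 98.5%, 98.6% and 99.2% of B cells thinned in the same way. The gap was thus present at equal depth. Of 2255 Malat1 UMIs, 2133 lay in the 13 members above 5000 UMIs, of which 11 had one, against 46 of the other 206.

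These 13 deep members were 1, 5, 2 and 5 cells in Control 1, Control 2, EV 1 and EV 2 but held 19.4%, 43.3%, 26.3% and 43.3% of all member UMIs. Several carried programmes of other cell types. In 2 cells of Control 2 and 1 of EV 2, 6 or 7 of the 7 plasmacytoid dendritic cell genes were found. These cells had 39 to 54 UMIs of Siglech, a receptor of that cell type, and 6 to 9 C1q UMIs. The deep cell of Control 1 had 3 C1q UMIs and 9 of 9 migratory dendritic cell genes. In EV 1, 1 cell with 27 C1q UMIs had 7 of 12 monocyte genes. A cell of Control 2 with 3 C1q UMIs had 7 of 11 conventional dendritic cell genes, and 1 of those with plasmacytoid genes had 5 of 11. A cell of EV 1 with 160 C1q UMIs carried no such list. The plasmacytoid dendritic cell genes (7 of 7 with a UMI, Bst2 the most abundant) summed to 728, 4273, 836 and 3521 CPM in members, the migratory dendritic cell genes (9 of 9, Il4i1) to 1955, 579, 542 and 452 CPM, and the monocyte genes (8 of 12, S100a4, with Chil3, Ace, Cd300e and Fn1 at 0) to 1102, 1805, 2826 and 944 CPM. The conventional dendritic cell genes (10 of 11, Sirpa) summed to 437, 724, 488 and 472 CPM.

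Lymphocyte genes are given as a description, since the rule keeps out cells with Cd3 or more than 1 Cd79a UMI. The B cell genes (14 of 15 with a UMI, Ighm the most abundant) summed to 1040, 1402, 983 and 1505 CPM in members. Without Cd79a, which the rule used, they summed to 1019, 1379, 960.1 and 1495 CPM, against 6896, 5775, 11439 and 10863 CPM in the other cells. The T cell genes (11 of 15, Cd4, with Cd3d, Cd3e and Cd3g at 0 by the rule) summed to 270, 777, 194 and 629 CPM, and those outside the rule to 5521, 5836, 3662 and 4770 CPM in the other cells. Genes of NK cells reached at most 20.8 CPM, those of neutrophils 92.9 CPM with S100a8 at 0, those of endothelium 145 CPM with Prox1 at 0, and those of stroma 157 CPM with Col1a1 at 0.

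The share of C1q macrophages did not separate the groups. They made up 0.430% and 0.849% of the cells of the Control and 0.845% and 0.563% of the EV libraries, a mean of 0.639% ± 0.296 (SD, n = 2) and 0.704% ± 0.200 (SD, n = 2) and a difference of 0.0645 percentage points (exact permutation test, two-sided, p = 1.0). B cells outnumbered T cells in EV libraries only, with 2843 and 2370 B cells in Control and 4616 and 4129 in EV libraries, so the denominator also moved. Among cells with no Cd3 and at most 1 Cd79a UMI, the members made up 13%, 15.3%, 16.1% and 14.1%, again with overlap. Without Control 1 the difference was -0.145 and without EV 1 it was -0.0767 percentage points, so its sign turned when either of these libraries was left out.

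UMIs were then summed over the members of each library and EV was compared with Control by edgeR's quasi-likelihood test. Of 1848 genes tested, 0 (0%) were called at an adjusted p under 0.05, 103 (5.57%) had an unadjusted p under 0.05, and DESeq2 called 2 (0.108%), Fth1 higher and Malat1 lower (0.0541% each). The Malat1 call rests on the deep members, since its log2 difference was -1.34 in all members and 0.21 in those of at most 5000 UMIs (edgeR adjusted p = 0.544 and 0.94), the latter a selection made after seeing the data. The groups did not overlap for 703 genes (38%), with EV higher in 480 (26%) and lower in 223 (12.1%). In such sums, fewer cells of a subtype and less RNA per cell cannot be told apart, and the p-values measure the spread between libraries that the labels call replicates.

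The named markers did not pass this test. Marco stood at 666, 289, 929 and 865 CPM in Control 1, Control 2, EV 1 and EV 2 (log2 fold change 0.84, SE 0.42, edgeR adjusted p = 0.879). Ccl8 stood at 1872, 1439.7, 3027 and 2527 CPM (0.63, SE 0.25, edgeR adjusted p = 0.864). Both genes had higher values in both EV libraries, without overlap. Lyz1 stood at 395, 373, 1208 and 364 CPM (0.92, SE 0.56, edgeR adjusted p = 0.896), with the EV libraries on both sides of the Control values. Siglec1, with 2, 4, 3 and 1 UMIs, and Cd163, with 0, 2, 1 and 0, were too low to be tested. Apoe stood at 20676, 15425, 11675 and 6589 CPM (-1.11, SE 0.33, edgeR adjusted p = 0.812), and Fth1 at 9173, 9461, 21229 and 16649 CPM (0.89, SE 0.23, edgeR adjusted p = 0.78). For Apoe both EV libraries were the lowest and for Fth1 the highest. Over the settings tried, the log2 difference ran from -1.54 to -0.68 for Apoe and from 0.71 to 1.18 for Fth1.

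Gene groups are described by how many of their tested members had groups without overlap, to be read against 26% with EV higher and 12.1% with EV lower over all genes, and by their median log2 difference, which was -0.03 over all genes. Of the sinus and medullary genes, 11 of 23 were tested, 4 of them were higher and 0 lower in both EV libraries, and the median was 0.63. Chemokine ligands had 6 higher and 2 lower of 9 tested (median 1.40), and iron and haem genes 4 higher and 0 lower of 7 (median 0.22). Ccl6, Ccl7, Ccl9 and Cxcl10 of the chemokines, like Cd5l, passed the expression filter through the EV libraries, which favours counts with EV higher. Macrophage transcription factors had 6 higher and 0 lower of 11 (median 0.46), among them Spi1 with 395, 274, 511 and 472 CPM and Spic with 166, 99.0, 457 and 285 CPM. Chaperones had 8 higher and 0 lower of 10 (median 0.77). In the other direction, 6 of 7 genes of the list of abundant nuclear or rRNA-like transcripts were lower and 0 higher (median -1.67). That list includes Gm42418 and the protein-coding genes Camk1d and Cmss1, which are named below as single genes. In the 206 members of at most 5000 UMIs, a selection made after seeing the data, these groups had medians of the same sign. The 206 are part of the 219, so the shared sign is no independent check. In the 206, 25.3% of all genes were higher and 16.4% lower. The sinus and medullary genes had 4 higher and 0 lower of 10, chemokine ligands 7 and 1 of 9, and iron and haem genes 4 and 0 of 7. Transcription factors had 4 higher and 0 lower of 8, chaperones 7 and 0 of 9, and the list of nuclear or rRNA-like transcripts 0 and 5 of 6.

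Several other groups differed between all members and those of at most 5000 UMIs. Of the mitochondrially encoded genes, 8 of 11 were lower and 0 higher in all members (median -0.49), but 1 of 10 was lower and 1 higher in the latter (median -0.11). MHC class I genes had 0 higher and 2 lower of 8 in all members (median -0.41) and 7 lower of 8 in those of at most 5000 UMIs (median -0.43), where 16.4% of all genes were lower. MHC class II genes had 3 higher and 1 lower of 8 (median 0.38), and 1 higher and 3 lower of 6 without the deep cells (median -0.13). Interferon response genes had 4 higher and 0 lower of 10 (median 0.36), and 2 higher and 0 lower of 8 without them (median -0.08). The general macrophage genes had 1 higher and 1 lower of 9 (median 0.09), and 0 higher and 4 lower of 8 without the deep cells (median -0.56). Lysosomal and cathepsin genes hardly moved, with 4 higher and 3 lower of 29 in all members (median -0.19) and 4 higher and 4 lower of 28 without the deep cells (median -0.21). Lipid handling genes had 2 higher and 1 lower of 9 (median -0.14), and 1 higher and 2 lower of 6 without them (median -0.09). Single cells weighed on some of these sums. Il1b, which encodes interleukin 1 beta, stood at 20.8, 15.2, 1758 and 9.83 CPM, from 9 members in all, so that its high value belonged to EV 1 alone.

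Since 13 cells held so large a part of the counts, the fit was repeated on the 206 members of at most 5000 UMIs, an alternative chosen after seeing the data. It called 14 of 981 genes (1.43%), of which 9 were higher (0.917%) and 5 lower (0.51%) in EV, and 107 (10.9%) had an unadjusted p under 0.05. Here 409 genes (41.7%) had groups without overlap, 248 with EV higher (25.3%) and 161 with EV lower (16.4%). All 14 had the same sign with all members, where none was called. The 206 members are part of the 219, so the shared sign is no independent check. The fold changes of both fits are set against each other in the plot of EV against Control.

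**Figure D4:**
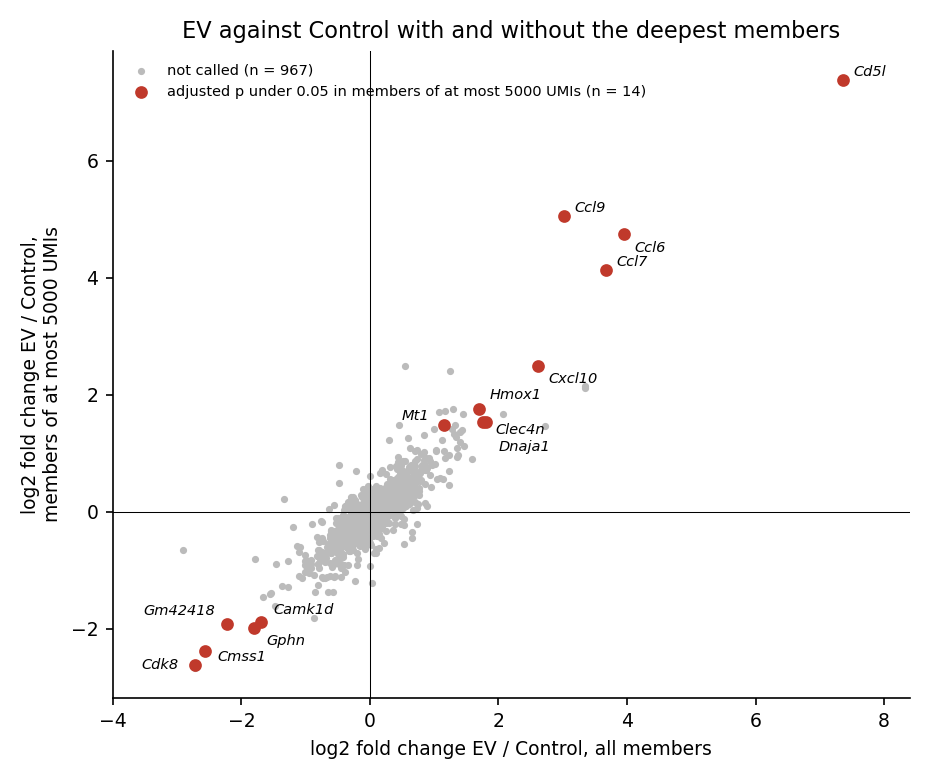
Log2 fold change of EV against Control for the 981 genes tested in both fits, with all 219 members (x) and with the 206 members of at most 5000 UMIs (y), 1 point per gene, the 14 called genes of the second fit in red. Called genes lie in the upper right or lower left, and the position of Cd5l depends on the prior count because both Control libraries are at 0.

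Chemokine genes were the largest group among the genes called higher, with 4 of 9 tested members of the list (Ccl6, Ccl7, Ccl9 and Cxcl10). In Control members of at most 5000 UMIs these 4 stood at 0 to 121 CPM, and they passed the expression filter through the EV libraries. A gene that enters this way could hardly be called lower, so the 4 of 9 and the median of the list are a description. Over all 981 genes, 0.917% were called higher. The median log2 fold change was 1.36 in the list, against 0.005 over all genes. In all members, Cxcl9 (853, 807, 619 and 295 CPM) and Ccl5 (2371, 289, 209 and 157 CPM) of the same list were lower in both EV libraries. Of the 114 Ccl5 UMIs of Control 1, 106 lay in 1 member. Ccl7 (chr11:82045712-82047525), which attracts monocytes, had 1, 5, 100 and 15 UMIs in 1, 4, 25 and 11 members. On the log2 scale it was higher in EV by 4.12 ± 0.71 (SE) in members of at most 5000 UMIs (edgeR adjusted p = 0.00273) and by 3.67 ± 0.93 in all members (edgeR adjusted p = 0.78). Ccl9 (chr11:83572919-83578636) and Ccl6 (chr11:83587882-83593087), neighbouring chemokines of myeloid cells, had 1, 4, 44 and 16 UMIs and 1, 1, 39 and 12 UMIs. Counting intervals of pooled UMIs leave out the spread between cells and between libraries. The ratio of EV to Control in pooled members was 9.32 for Ccl9 (counting interval 3.78 to 29.8) and 19.8 for Ccl6 (5.21 to 168). Their edgeR adjusted p in members of at most 5000 UMIs was 0.00113 and 0.00372, and Ccl6 overlaps the gene E230016K23Rik in the annotation. Cxcl10, an interferon-induced chemokine whose locus overlaps Art3, had 2, 9, 86 and 13 UMIs (2.49, SE 0.57, edgeR adjusted p = 0.0212). Over the settings tried, the edgeR or DESeq2 adjusted p of Ccl7 ran from 2.64e-09 to 0.998, that of Ccl9 from 9.8e-04 to 0.998, that of Ccl6 from 1.7e-04 to 0.822 and that of Cxcl10 from 3.35e-06 to 1. With 1 library left out or another setting, the log2 difference in EV ran from 2.06 to 4.45 for Ccl7 and from 1.01 to 3.39 for Cxcl10, lowest without EV 1 and highest without EV 2 in both. For Ccl9 it ran from 2.38 without EV 1 to 5.05 in members of at most 5000 UMIs, and for Ccl6 from 3.19 without Control 2 to 4.75. In the other cells, Ccl6 (2.87, 0.777, 6.86 and 4.21 CPM), Ccl9 (1.14, 0.975, 3.78 and 1.75 CPM) and Ccl7 (0, 0.126, 1.55 and 0.175 CPM) were likewise higher in both EV libraries, at far lower levels, while Cxcl10 overlapped. All 4 called chemokines were higher in EV 1 than in EV 2, and neither EV library overlapped with Control. Ccl12 missed the threshold (1.36, SE 0.35, edgeR adjusted p = 0.0506), with 312, 404, 1533 and 551 CPM in all members. Its log2 difference ran from 0.50 to 2.08 over the settings tried.

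Among the sinus and medullary genes, Cd5l alone was called (1 of 10 tested, with 0.917% called higher over all genes). Having no UMI in Control members, it passed the expression filter through the EV libraries alone and could only be called higher. The 1 of 10 is thus a description. Cd5l (chr3:87357881-87371073), a secreted scavenger protein of tissue macrophages also known as AIM, had 0 UMIs in both Control libraries and 27 and 21 UMIs in 14 and 7 members of EV 1 and EV 2. Against a floor of 3 UMIs over both Control libraries, this is at least 12.4-fold higher in EV (edgeR adjusted p = 0.00113 in members of at most 5000 UMIs, 0.544 in all members). B cells held a Cd5l UMI in 0.774%, 0.717%, 0.780% and 0.388%, so that EV 2 lay below and EV 1 slightly above both Control libraries. In the members the shares were 0%, 0%, 20.3% and 14.6%, which rest on 21 cells. Over the settings tried, the log2 difference of Cd5l ran from 6.34 to 7.61, which depends on the prior count. Outside members of at most 5000 UMIs and the fit without filterByExpr, no setting that kept all libraries called it, the replicate block aside.

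The remaining genes called higher in members of at most 5000 UMIs were Hmox1, Clec4n, Dnaja1 and Mt1. Of the lists, 1 of 7 iron and haem genes (Hmox1), 1 of 8 phagocytic and scavenger receptors (Clec4n) and 1 of 9 chaperones (Dnaja1) were called. Mt1 is in no list. Over all genes, 0.917% were called higher. Hmox1 (chr8:75093621-75100589), which breaks down haem, stood at 250, 183, 1007 and 482 CPM in all members and had a UMI in 9, 16, 26 and 21 of them. The log2 difference was 1.76 ± 0.34 (SE) in members of at most 5000 UMIs (edgeR adjusted p = 0.00372) and 1.70 ± 0.47 in all members (edgeR adjusted p = 0.812). Clec4n (dectin-2), a receptor for fungal mannans, stood at 187, 129, 782 and 344 CPM (1.54, SE 0.35, edgeR adjusted p = 0.0194), and Mt1, a metallothionein, at 354, 129, 488 and 599.9 CPM (1.49, SE 0.34, edgeR adjusted p = 0.0212). In the other cells, Hmox1 (1.06, 1.35, 4.83 and 1.86 CPM) and Clec4n (0.285, 0.506, 3.42 and 1.54 CPM) were also higher in both EV libraries, while Mt1 overlapped. Dnaja1, a co-chaperone of HSP70, stood at 104, 183, 650.4 and 521 CPM (1.54, SE 0.37, edgeR adjusted p = 0.0263), and in the other cells at 217, 231, 364 and 397 CPM. Over the settings tried, the edgeR or DESeq2 adjusted p ran from 0.00116 to 0.998 for Hmox1, 0.00134 to 1 for Clec4n, 0.0212 to 1 for Mt1 and 0.00423 to 0.801 for Dnaja1. The log2 difference ran from 1.10 without EV 1 to 2.20 without EV 2 for Hmox1, from 1.08 to 2.30 for Clec4n in the same settings, and from 0.52 without Control 2 to 1.94 without Control 1 for Mt1. The chaperone list as a whole summed to 4556, 3801, 7797 and 6756 CPM in members and to 2901, 3093, 4528 and 4984 CPM in the other cells, higher in both EV libraries in each.

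The 5 genes called lower were Cdk8, Cmss1, Gm42418, Camk1d and Gphn, and both EV libraries were also low for them in the other cells. Cdk8 (chr5:146231230-146302874), a kinase of the Mediator complex, had 66, 58, 31 and 4 UMIs in the members, or 1373, 442, 240.0 and 39.3 CPM, and 762, 443, 256 and 88.6 CPM in the other cells. The log2 difference was -2.61 ± 0.49 (SE) in members of at most 5000 UMIs (edgeR adjusted p = 0.00372) and -2.72 ± 0.81 in all members (edgeR adjusted p = 0.812). Its paralog Cdk19 had values on both sides, 41.6, 129.5, 31.0 and 88.5 CPM (-0.83, SE 0.86, edgeR adjusted p = 0.938). Gm42418, a transcript of a ribosomal RNA locus that overlaps AY036118, stood at 44265, 23256, 12992 and 2537 CPM in members and 8656, 9917, 5667 and 837 CPM in the other cells (-1.91, SE 0.42, edgeR adjusted p = 0.0155). Cmss1, Camk1d and Gphn had log2 fold changes of -2.38, -1.88 and -1.99 (SE 0.43, 0.36 and 0.38, edgeR adjusted p = 0.00372 for each). Outside members of at most 5000 UMIs and the fit without filterByExpr, no setting that kept all libraries called Cdk8, the replicate block aside. The log2 difference ran from -4.51 without EV 1 to -1.72 without Control 1 for Cdk8, and without EV 1 and without EV 2 it was -3.81 and -1.42 for Gm42418 and -4.72 and -1.68 for Cmss1. EV 2 was the lowest library for Cdk8, Cmss1, Gm42418 and Camk1d in both kinds of cell, and the part that a library effect has in these genes was not tested.

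**Figure D5:**
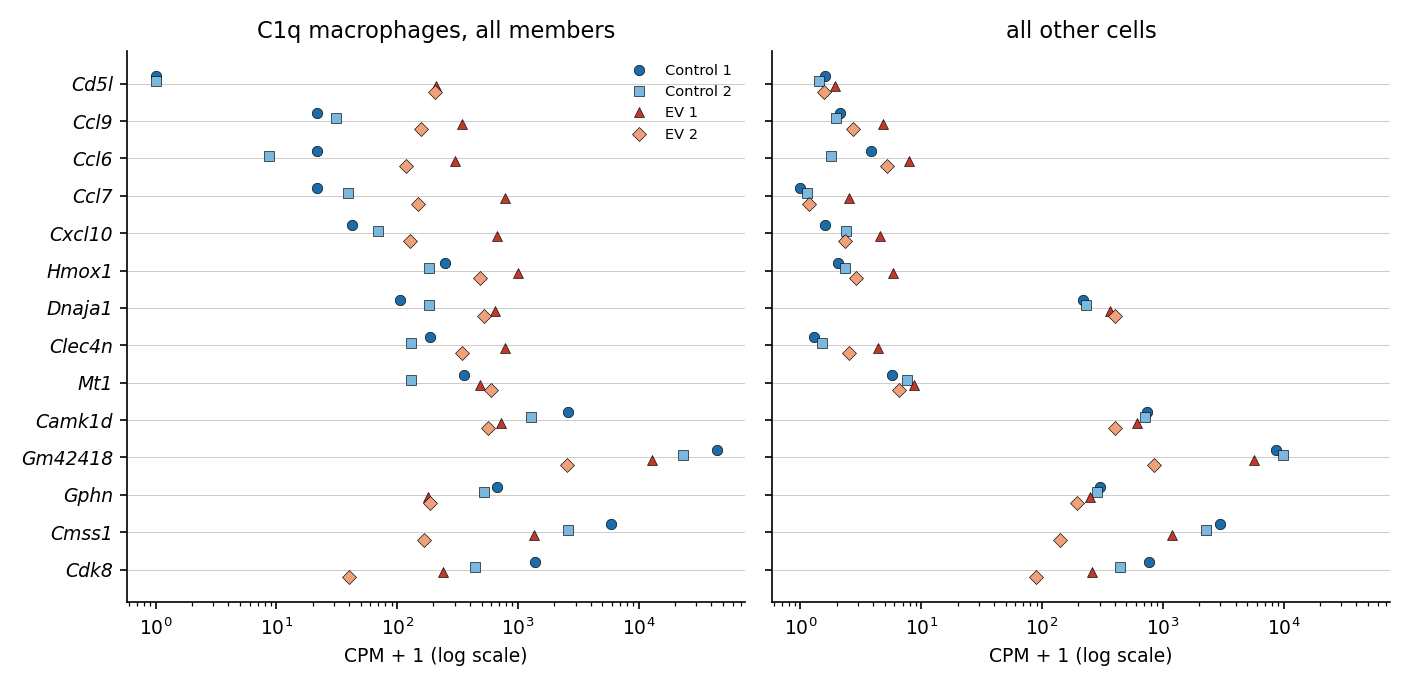
CPM + 1 (x, log scale) of the 14 genes called in members of at most 5000 UMIs, in all members (left) and in all other cells (right), 1 point per library. In the 5 lowest rows both EV libraries lie below both Control libraries in both panels, and for Cd5l the EV libraries stand far from Control in the left panel.

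Whether EV acted differently in C1q macrophages than in the other cells was tested by an interaction term, fitted with the library as block. It called 8 of 14644 genes (0.0546%), 1 higher (0.00683%) and 7 lower (0.0478%), against 403 (2.75%) at an unadjusted p under 0.05, and none of the 14 genes above was among them (edgeR adjusted p = 0.981 for Cd5l and 1 for the others). Lyz2 had a difference of -1.75 (SE 0.29, edgeR adjusted p = 1.61e-05) and Apoe of -1.72 (SE 0.30, edgeR adjusted p = 4.34e-05). In members, Lyz2 stood at 21571, 17429, 18713 and 11958 CPM, with the groups overlapping. In the other cells it stood at 35.2, 75.2, 186 and 110 CPM. With T cells in place of all other cells the difference for Lyz2 was -0.17. Apoe was lower in EV members and higher in EV among the other cells (56.9, 70.6, 138 and 87.7 CPM).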

How the data were processed

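Single-cell 3′ RNA libraries of lymph node cells were made with 10x chemistry, 1 per sample. The authors aligned the reads to mm10 with Cell Ranger 7.1.0 and deposited unnormalized UMI counts per gene and barcode. The handling of intronic reads and the annotation release are not given in the sources used here. The libraries held 8361 and 8297 (Control) and 8665 and 9000 (EV) barcodes, with 50749656, 58100433, 68116085 and 70418672 UMIs, and 8141, 7891, 8164 and 8529 cells passed the quality limits. Between 12 and 26 barcodes were shared by any pair of libraries.

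Cells were gated on raw counts and summed per library. Sums were compared with edgeR 4.0.16 in R 4.3.3 (quasi-likelihood test, two-sided, TMM, filterByExpr, Benjamini-Hochberg adjustment over all genes tested), in place of the cell-level Wilcoxon test of the study, with DESeq2 1.42.0 as an alternative. Genes of the rule were described only. Shares were compared by an exact permutation test. Shares were also computed after thinning each cell to 500 UMIs, and no cell was shallower. No doublet caller was run; cells with Cd3 or more than 1 Cd79a UMI lie outside the rule, and deep members are described. The members, the gene lists (33 lists, 455 of 460 genes in the files) and the tests were chosen with earlier results of these data known. Clec7a, Ccl19, Ccl21a, Mx1 and Mx2 were not analysed here. Named genes were C1qa, C1qb, C1qc, Siglec1, Cd163, Marco, Ccl8, Lyz1, Lyz2, Cdk8 and Cdk19, the called members of the lists, the 12 largest rises and falls among called genes without overlap, the 25 highest folds over other cells, and for other lists the 2 to 4 members highest in CPM. Other genes, such as Spic, Adgre1, Cd68, Mrc1, Csf1r, Lyve1, Il10 and Siglech, were named after their values were seen. A result that the rule takes is not reported here. The fit was tested on simulated data. Coordinates are those of GENCODE M21, in which 32158 of 32285 gene IDs were found, and promoters those of RefSeq (GRCm38.p6).

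Alternatives were DESeq2, no filterByExpr, a replicate block, thinned cells, no upper limits on genes or UMIs with a mitochondrial limit of 5%, a ribosomal limit of 60%, at least 6 C1q UMIs, no UMI of 11 lymphocyte genes, library sizes without abundant gene classes, B or T cells in place of all other cells, each library left out in turn, and members of at most 5000 UMIs, the last chosen after seeing the data.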

Additional observations from a re-analysis of the deposited data

Results flagged for a closer look

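For 8 genes the EV effect differed between C1q macrophages and all other cells by the interaction test of edgeR. Lyz2 (difference -1.75, edgeR adjusted p = 1.61e-05) and Apoe (-1.72, edgeR adjusted p = 4.34e-05) were spread over 211 and 216 members, and each was called in 3 of 8 other settings. Their explanation was not tested. The other 6 genes, named after their values were seen, had from 22 of 56 to all of their UMIs in 1 member. Cd8b1 (edgeR adjusted p = 0.00889) had 22 UMIs in 1 member of EV 2 and none elsewhere. Iglc2 (edgeR adjusted p = 0.0297) had 13 UMIs in Control 2, 12 of them in 1 member. For Alcam (edgeR adjusted p = 0.0419), 12 of 14 UMIs were in 1 member, and for Adam23 (edgeR adjusted p = 0.043) 15 of 26. Ccl5 (-2.34, edgeR adjusted p = 0.043) had 114, 38, 27 and 16 UMIs in Control 1, Control 2, EV 1 and EV 2, 106 of them in 1 member. Maml2 (-2.86, edgeR adjusted p = 0.043) had 1, 49, 5 and 1 UMIs, 22 of them in 1 member.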

How the results depend on the processing

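The count of genes called between EV and Control, 0 with edgeR, was 2 with DESeq2, 33 of 11651 without filterByExpr, 14 in members of at most 5000 UMIs (chosen after seeing the data) and 0 in the other settings that keep all libraries, apart from the block. With the replicate number as a replicate block it was 34, 16 higher and 18 lower. Same-numbered libraries deviated together (r = 0.397 across 1848 genes, which are not independent replicates), but the labels give only a shared number. It was 43 without Control 1, 48 without Control 2, 11 without EV 1 and 75 without EV 2, with 1 group left as a single library that is assumed to vary like the other. The cause was not tested. The count of genes whose EV effect differed from other cells, 8, was 4 without filterByExpr, 0 with B cells and 3 with T cells as the other cells, 2 in members of at most 5000 UMIs, and 0 to 3 with 1 library left out (0 without Control 1, 3 without Control 2, 1 without EV 1, 2 without EV 2). The difference in the share of C1q macrophages ran from -0.145 to 0.274 percentage points with 1 library left out. That of members with a UMI ran from -2.75 to 0.358 points for Siglec1 (0.0895 at 6 C1q UMIs), from -0.768 to 0.725 for Cd163 and from -6.10 to 4.95 for Lyz1; for Ccl8 it was -1.72 after thinning and -1.67 at 6 C1q UMIs, and for Marco it kept its sign. Among single genes, Lyz1 ran from -0.16 to 1.60 with 1 library left out, Malat1 was 0.21 in members of at most 5000 UMIs, and Maml2 was 0.25 there and ran from -4.51 to 0.48 with 1 library left out. Siglec1 and Cd163 had 10 and 3 UMIs in all, and whether low depth or low expression set these counts was not tested.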
